A study of Mus musculus with 8 samples.

Results

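The G1/S and DNA replication genes are 41 genes that carry a mouse cell from the G1 phase of the cell cycle into DNA synthesis. They were chosen by name, from cyclins, kinases and E2F factors to the subunits of the replication fork, and not by a measured value. All 41 had at least 1 probe set whose single gene symbol in the platform annotation was theirs, with 100 probe sets of the 45101 on the array, and all 41 were among the 14267 genes kept for the tests out of 18194 named genes. RNA came from embryonic stem cells of 129X1 x 129S1 mice and was read on 8 Affymetrix arrays, 2 for each of 4 groups. In the shTop1 coculture, cells with a hairpin against Top1 were grown in a dish with mock cells at 1:4 for 4 days. In the shTop1 mix, each kind of cell was kept in its own dish for 4 days and RNA of both was joined at 1:4. The shp53 coculture and the shp53 mix were made likewise with cells that carry a hairpin against p53. All groups therefore contain mock cells or their RNA in excess, and knockdown RNA made up 20% of each mix, while the final share of knockdown cells in a coculture was not measured here. The labels do not say whether a knockdown line is a clone, what the mock cells carry, whether the mixes shared mock RNA or whether replicates came from separate thaws, so p-values measure the spread between these arrays.

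Entry into S phase is driven by D cyclins with Cdk4 or Cdk6 and by E cyclins with Cdk2, which phosphorylate the retinoblastoma protein and release E2F factors that switch on replication genes. In G1 the origin recognition complex, Cdc6 and Cdt1 load the Mcm helicase onto DNA, and in S phase Cdc45 and the GINS complex activate it and polymerases copy both strands. Mouse embryonic stem cells are known for a short G1 phase, high Cdk2 activity with cyclin E and low levels of D cyclins compared with differentiated cells.

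Top1, the target of a hairpin, had a signal of 5281 and 5283 on the shTop1 coculture arrays against 5109.6 and 5316 on the shTop1 mix arrays, and of 5572 and 5886 on the shp53 coculture arrays against 5456 and 5682 on the shp53 mix arrays (replicates 1 and 2, here and below). Every shTop1 array thus lay below every shp53 array for Top1, as was so for 1.07% of all genes tested. The log2 difference, shTop1 minus shp53, was -0.11 over both conditions. How far Top1 was lowered in the knockdown cells themselves was not tested. The p53 gene was not analysed here. Embryonic stem cell markers were present, with 10 of 10 above the low-signal filter, a signal of 22.1, and a summed signal of 116290 to 123950 in the cocultures and 119120 to 121700 in the mixes. Fibroblast markers, of which 5 of 9 named genes were above the filter and Col3a1, Postn, Dcn and Lum below it, summed to 576 to 744 in the cocultures and 465 to 542 in the mixes. Primitive endoderm markers (6 of 6 above the filter) summed to 10773 to 12023 in the cocultures and 10436 to 10758 in the mixes. Trophectoderm markers (5 of 6, with Elf5 below the filter) summed to 7749 to 8429 in the cocultures and 6858 to 7597 in the mixes. For these last 3 sums the cocultures lay above the mixes on every array. Of the single markers this held for 1 of 5 fibroblast markers (Thy1), 0 of 6 endoderm markers and 1 of 5 trophectoderm markers (Krt8), against 5.75% of all genes tested. The 10 stem cell markers had log2 changes from -0.29 (Sox2) to 0.21 (Fgf4), 7 above 0 and 3 below. None of these 10 had all cocultures above all mixes, and 1 (Klf4) had all below, against 3.35% of all genes. In the trophectoderm list Krt8 and Krt18 had log2 changes of 0.14 and 0.15, and Cdx2, Eomes and Tfap2c of -0.03, 0.001 and 0.02. The part of these markers in the results below was not tested. In bulk RNA, fewer cells of a type and less RNA per cell cannot be told apart. The log2 ratio of the 3' to the 5' probe set of Actb, a sign of RNA integrity, was 0.488 to 0.677 in the cocultures and 0.463 to 0.672 in the mixes.

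Coculture was first compared with the mixes over both knockdowns, to find what changed when the cells lived together. The 41 genes had a median log2 change of 0.022, equal to that of all genes tested (0.022), with 22 above 0 and 19 below. No member passed limma's test over all genes, where 0% of genes were called and the smallest adjusted p of a member was 0.333. The members at an unadjusted p under 0.05 numbered 5, or 12.2%, close to the 11.7% of all genes tested. Of these, Cdc45 was higher in coculture, as were 7.09% of all genes at that p, and Ccnd1, Ccne2, E2f3 and Tyms were lower, as were 4.63% of all genes. Cocultures and mixes did not overlap for 4 members that were higher in coculture (Cdc45, Gmnn, Mcm6 and Rrm1) and for 4 that were lower (Ccnd1, Ccne2, Cdk6 and E2f3), which is 9.76% each against 5.75% and 3.35% of all genes. Among genes at or above the median mean signal these shares were 7.89% and 4.70%. A log2 change past 0.25 was seen in 6 members (14.6%), against 22.0% of all genes tested and 9.07% of genes at or above the median mean signal, where 38 of the 41 members lay. With each array left out in turn, all cocultures lay above all mixes for 4 to 11 of the 41 members, against 6.93% to 10.4% of all genes. They lay below for 4 to 6 members, against 4.39% to 6.75% of all genes. The 11 members came without shTop1 coculture replicate 1, a larger share than the 10.4% of all genes, with 4 members below in that setting (6.75% of all genes). The median log2 change of the members was then 0.027 (0.032 for all genes), and without shp53 mix replicate 1 it was 0.019 (0.017 for all genes). With each array centred on its median the changes moved upwards, with a median of 0.068 for all genes tested and 0.096 for the members, of which 30 were then above 0, so the sign of members with changes near 0 depends on the scaling.

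**Figure D1:**
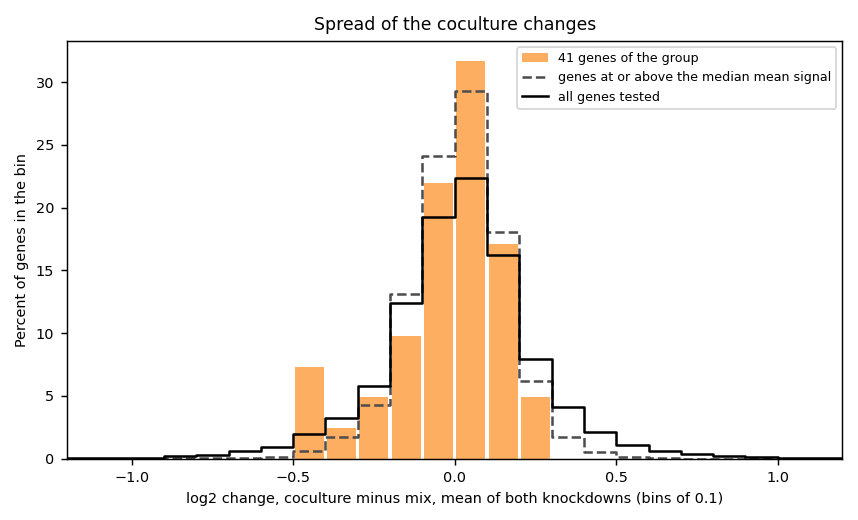
Percent of genes (vertical axis) in bins of 0.1 of the log2 change between coculture and mix, averaged over both knockdowns (horizontal axis), for the 41 genes (bars), for genes at or above the median mean signal (dashed line) and for all genes tested (solid line). The bars sit around the same median as all genes tested, 0.022, and range from -0.50 to 0.29.

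By role, the 13 cyclins, kinases, brakes and E2F factors had 5 members above 0 and 8 below (median -0.15), and the 28 genes of replication, nucleotide supply and histone mRNA had 17 above 0 and 11 below (median 0.039). By the probe sets used, all 4 members that were lower in coculture without overlap were cyclins, kinases or E2F factors (30.8% of the 13). All 4 that were higher were genes of replication or nucleotide supply (14.3% of the 28). Over all genes tested 3.35% were lower and 5.75% higher without overlap. Among the other probe sets without overlap, those of Ccnd1, E2f2 and Mcm7 kept to this division, but those of Cdc45 (-0.70) and Tyms (-0.32) were lower in coculture. This division was made with the values known and was given no test. The plot of changes by role shows every member.

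**Figure D2:**
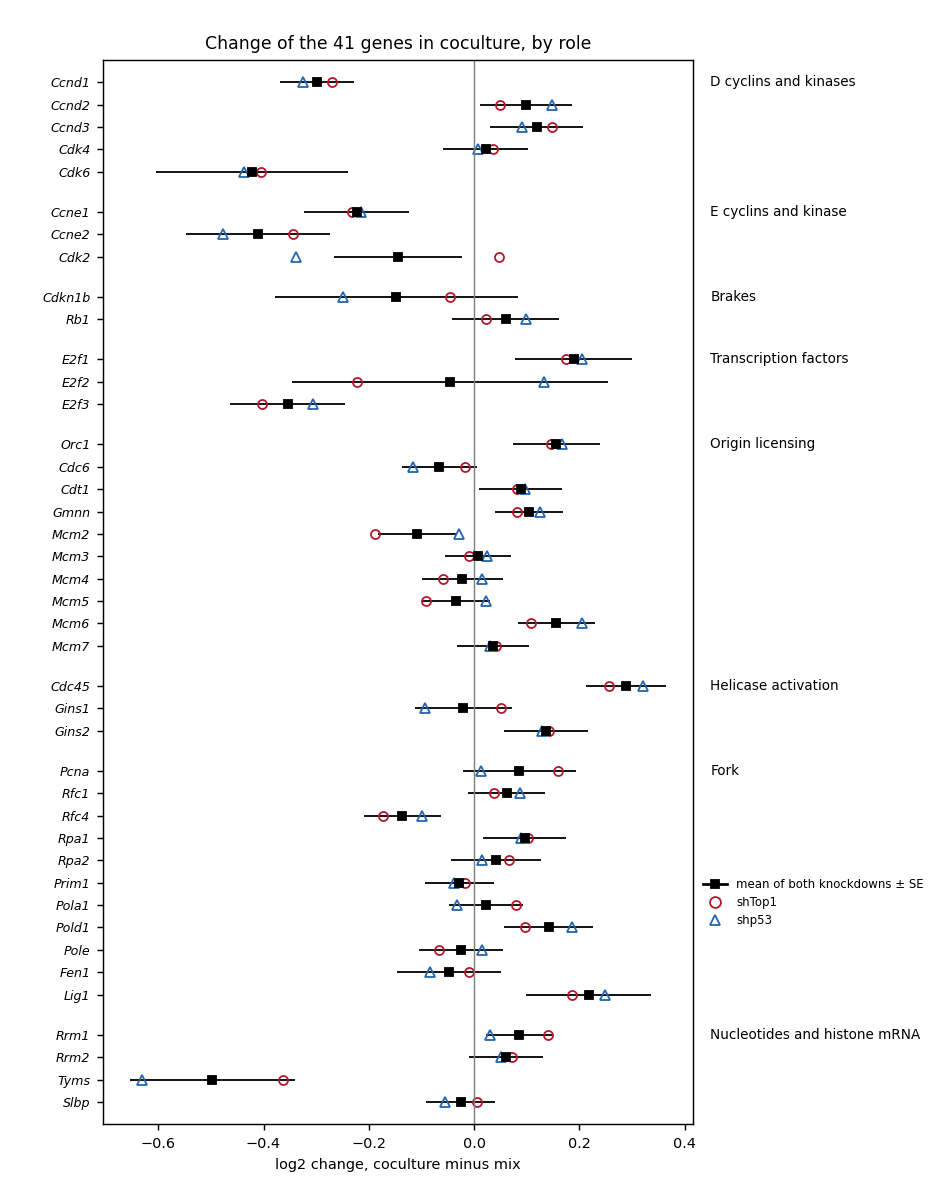
Log2 change between coculture and mix (horizontal axis) for each of the 41 genes, grouped by role. Squares are the mean of both knockdowns with the SE of the limma fit, circles are shTop1 and triangles shp53. Ccnd1, Cdk6, Ccne1, Ccne2 and E2f3 lie left of 0 in both knockdowns, and Cdc45 right of it.

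Among the D cyclins, which pair with Cdk4 and Cdk6 to start the release of E2F, Ccnd1 stood apart from its relatives. Ccnd1, cyclin D1, had a signal of 2309 and 2135 in the shTop1 coculture against 2718 and 2646 in the shTop1 mix, and of 2121 and 2294.5 in the shp53 coculture against 2777 and 2757 in the shp53 mix. All 4 cocultures lay below all 4 mixes, in both knockdowns, and the values within a group were close. The means were 2215 ± 101 in the cocultures and 2724 ± 58.0 in the mixes (SD, n = 4 each, both knockdowns pooled). The log2 change was -0.30 ± 0.07 (SE), a ratio of 0.814 on the scale of signal plus 16 (limma adjusted p = 0.333). An exact permutation test of the same 8 values gave p = 0.0286, the smallest that 4 against 4 allows. Any gene whose groups do not overlap gets this p, so it adds nothing to the lack of overlap, which 5.75% of all genes showed upwards and 3.35% downwards. Leaving out any 1 array the change lay between -0.33 and -0.27. Ccnd2, cyclin D2, had a log2 change of 0.10 ± 0.09 and Ccnd3, cyclin D3, of 0.12 ± 0.09 (SE), and their groups overlapped.

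Cdk4 had a log2 change of 0.02 ± 0.08 (SE), with 4985 to 5557 in the cocultures and 4883 to 5512 in the mixes. Cdk6 had a signal of 269 and 167 in the shTop1 coculture against 283 and 290.05 in the shTop1 mix, and of 183 and 275 in the shp53 coculture against 299 and 323 in the shp53 mix. Each coculture thus held a value close to the mixes and a far lower one. The log2 change of Cdk6 was -0.42 ± 0.18 (SE), its groups did not overlap, and limma gave an adjusted p of 0.445. Without shTop1 coculture replicate 2 the change was -0.26.

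Ccne1 and Ccne2, the E cyclins that activate Cdk2, were both below 0 in both knockdowns. Ccne2 had a signal of 643 and 505 in the shTop1 coculture against 711 and 745 in the shTop1 mix, and of 586 and 497 in the shp53 coculture against 885 and 649 in the shp53 mix. The highest coculture value lay just under the lowest mix value, so the groups did not overlap by a small margin. The means were 558 ± 69.5 in the cocultures and 748 ± 99.9 in the mixes (SD, n = 4 each), and the log2 change was -0.41 ± 0.14 (SE, limma adjusted p = 0.375). Ccne1 had 2359 to 2918 in the cocultures and 2849 to 3280 in the mixes, with a log2 change of -0.22 ± 0.10 (SE, limma adjusted p = 0.450, two-sided exact permutation p = 0.0571). Cdk2 had -0.15 ± 0.12 (SE), with 1952 to 2385 in the cocultures and 2068 to 3038 in the mixes.

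The brakes on this step showed no difference beyond their spread. Cdkn1b, which encodes the inhibitor p27, had 1218 to 2236.5 in the cocultures and 1461.5 to 2350.4 in the mixes, a log2 change of -0.15 ± 0.23 (SE). It was among the most variable members within groups, with a within-group SD of 0.388 on the log2 scale against a median of 0.088 over the members. Rb1, the retinoblastoma gene, had 684 to 782 in the cocultures and 616 to 765 in the mixes, a log2 change of 0.06 ± 0.10 (SE).

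**Figure D3:**
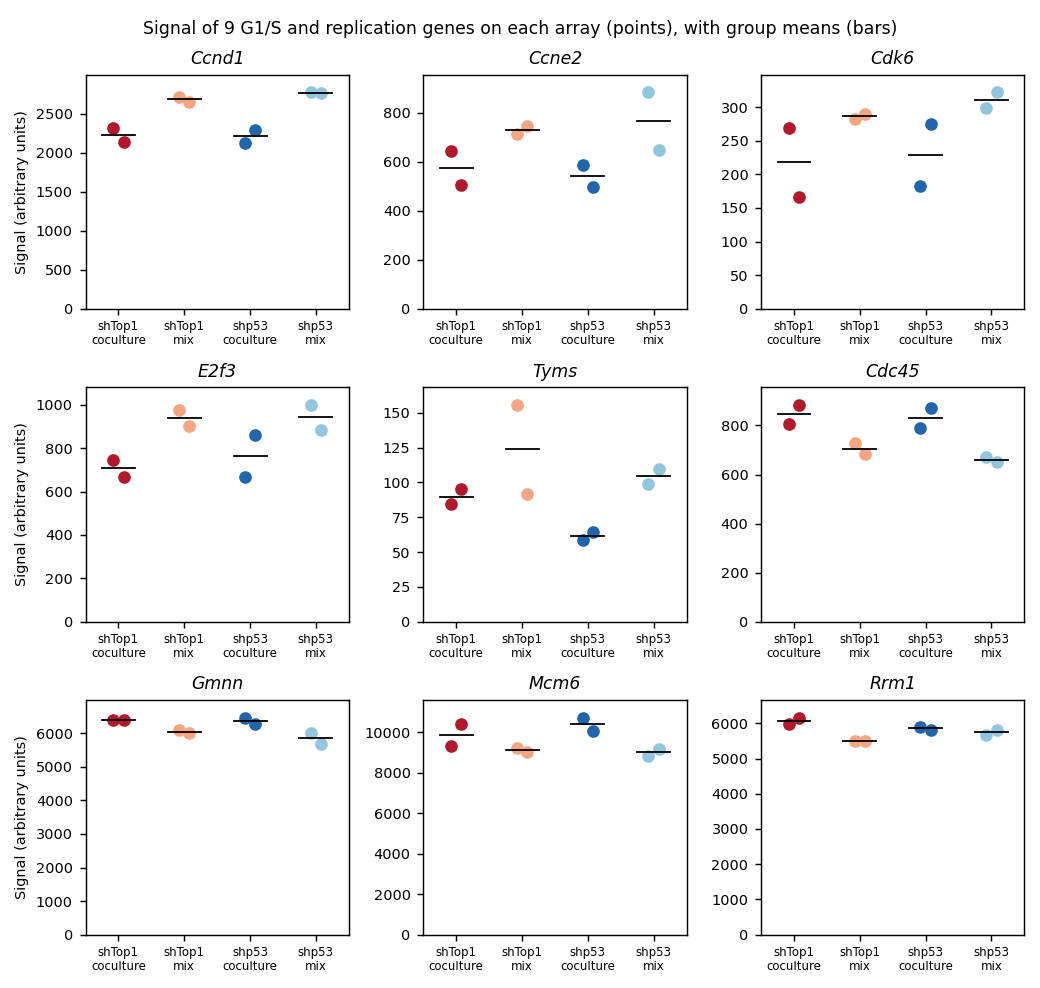
Signal (vertical axes, arbitrary units, each starting at 0) of 9 genes on each of the 8 arrays, by group (horizontal axes), with 2 points and a bar at the mean per group. Ccnd1, Ccne2, Cdk6 and E2f3 are lower and Cdc45, Gmnn, Mcm6 and Rrm1 higher on every coculture array than on every mix array, and the groups of Tyms overlap.

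Of the 3 E2F transcription factors, E2f3 was lower in coculture without overlap by the probe set used, and E2f1 and E2f2 overlapped. E2f3, an activating E2F, had a signal of 747 and 668 in the shTop1 coculture against 978 and 902 in the shTop1 mix, and of 669 and 859 in the shp53 coculture against 1001 and 884 in the shp53 mix. All cocultures lay below all mixes, with shp53 coculture replicate 2 nearest to them. The means were 736 ± 90.4 in the cocultures and 941 ± 56.6 in the mixes (SD, n = 4 each), and the log2 change was -0.35 ± 0.11 (SE, limma adjusted p = 0.358). E2f1, also an activator, had a log2 change of 0.19 ± 0.11 (SE), with 721 to 978 in the cocultures and 719 to 763 in the mixes. E2f2 had 105 and 278 in the shTop1 coculture against 208 and 201 in the shTop1 mix, and 151 and 246 in the shp53 coculture against 161 and 189 in the shp53 mix. Its cocultures spanned the mixes on both sides, with the highest within-group SD of the 41 genes (0.512 on the log2 scale), and the log2 change was -0.05 ± 0.30 (SE). The order of these genes depends on the probe set, since a second one gave 0.13 for E2f3, with overlap, and a second one gave -0.44 for E2f2, with all cocultures below all mixes.

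Since E2F factors act on many of these genes, their promoters were searched for the 4 spellings of the E2F motif TTTCCCGC, TTTCGCGC, TTTGCCGC and TTTGGCGC on both strands, in the windows from 250 bases before to 50 bases after each start listed by RefSeq (GRCm38.p6). Of the 32 members with a window, 13 (40.6%) held a match, against 2.60% of the 27025 genes with a window. Members with a match had log2 changes from -0.35 to 0.22 in coculture (median 0.024, 8 above 0 and 5 below), and the 19 without a match from -0.50 to 0.29 (median 0.022, 10 above 0 and 9 below). The ranges overlapped. The 250 bases before the start are printed for 4 genes, to set a lower and a higher member with a match beside a lower and a higher member without. Capitals mark the matches.
E2f3, chr13:29986064-29986313, minus strand: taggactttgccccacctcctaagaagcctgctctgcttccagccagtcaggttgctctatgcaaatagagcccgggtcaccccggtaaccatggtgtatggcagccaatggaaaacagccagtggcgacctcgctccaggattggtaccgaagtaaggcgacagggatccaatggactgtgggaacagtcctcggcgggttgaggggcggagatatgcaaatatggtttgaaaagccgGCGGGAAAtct
Mcm6, chr1:128359706-128359955, minus strand: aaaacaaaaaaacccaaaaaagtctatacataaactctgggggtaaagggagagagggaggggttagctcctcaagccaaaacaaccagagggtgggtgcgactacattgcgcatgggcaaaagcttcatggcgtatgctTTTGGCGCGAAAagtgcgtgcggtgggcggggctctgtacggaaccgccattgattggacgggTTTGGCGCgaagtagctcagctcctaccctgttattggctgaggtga
Cdk6, chr5:3343643-3343892, plus strand: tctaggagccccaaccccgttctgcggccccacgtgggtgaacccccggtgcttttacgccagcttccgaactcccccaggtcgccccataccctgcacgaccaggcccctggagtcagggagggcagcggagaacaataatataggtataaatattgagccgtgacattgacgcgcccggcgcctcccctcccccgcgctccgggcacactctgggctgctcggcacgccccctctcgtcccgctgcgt
Cdc45, chr16:18811973-18812222, minus strand: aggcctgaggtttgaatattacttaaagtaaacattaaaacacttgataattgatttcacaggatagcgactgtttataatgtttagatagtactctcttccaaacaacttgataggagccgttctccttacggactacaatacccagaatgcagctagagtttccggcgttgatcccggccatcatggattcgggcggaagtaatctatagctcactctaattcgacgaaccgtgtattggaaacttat
E2f3, lower in coculture, has a match that begins at position -11 from the start, in the first of the 2 windows listed. Mcm6, higher in coculture, has 3 matches, at -110, -106 and -47, and the first 2 overlap. Cdk6 and Cdc45 have none in this window. A match describes the letters and is not evidence of binding in these cells.

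Genes of origin licensing, the loading of the helicase in G1, had 6 members above 0 and 4 below (median 0.022), and changes from -0.11 to 0.16. Orc1, the largest subunit of the origin recognition complex, had a log2 change of 0.16 ± 0.08, Cdc6, a loading factor, -0.07 ± 0.07, and Cdt1, its partner, 0.09 ± 0.08 (SE). Cdt1 had a signal of 15825 and 18108 in the shTop1 coculture against 16084 and 15921 in the shTop1 mix, and of 17711 and 17259 in the shp53 coculture against 15569 and 17165 in the shp53 mix. Its groups overlapped. Gmnn, which encodes geminin, the inhibitor of Cdt1, had 6406 and 6395 in the shTop1 coculture against 6091 and 5999 in the shTop1 mix, and 6472 and 6294 in the shp53 coculture against 6006 and 5695 in the shp53 mix. Every coculture was above every mix, by a log2 change of 0.10 ± 0.06 (SE, limma adjusted p = 0.558).

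The 6 Mcm genes, which encode the subunits of the replicative helicase, had log2 changes of both signs. Mcm3 (0.01 ± 0.06), Mcm4 (-0.02 ± 0.08), Mcm5 (-0.03 ± 0.06) and Mcm7 (0.04 ± 0.07) had log2 changes within their SE of 0, and Mcm2 had -0.11 ± 0.07. Mcm7 had 17290 and 18801 in the shTop1 coculture against 17640 and 17410 in the shTop1 mix, and 17750 and 17900 in the shp53 coculture against 17047 and 17860 in the shp53 mix. By the probe sets used, only Mcm6 of the 6 had groups that did not overlap, with 9287 and 10388 in the shTop1 coculture against 9213 and 9018 in the shTop1 mix, and 10711 and 10039 in the shp53 coculture against 8829 and 9153 in the shp53 mix. All cocultures were above all mixes, though shTop1 coculture replicate 1 by little. The log2 change of Mcm6 was 0.16 ± 0.07 (SE, limma adjusted p = 0.463).

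Of the genes that activate the helicase, Cdc45 had the highest log2 change of the 41 genes. Its signal was 807 and 885 in the shTop1 coculture against 728 and 682 in the shTop1 mix, and 789 and 872 in the shp53 coculture against 672 and 649.8 in the shp53 mix. The groups were clear of each other in both knockdowns, with means of 838 ± 47.3 in the cocultures and 683 ± 32.9 in the mixes (SD, n = 4 each). The log2 change was 0.29 ± 0.08 (SE), a ratio of 1.22 (limma adjusted p = 0.345). A second, dimmer Cdc45 probe set ran the other way, with 49.0 and 87.6 in the shTop1 coculture against 109 and 133 in the shTop1 mix, and 68.0 and 89.3 in the shp53 coculture against 119 and 149 in the shp53 mix. Its log2 change was -0.70 and its groups did not overlap either, so the direction of Cdc45 depends on the probe set. Gins1 and Gins2, subunits of the GINS complex, had log2 changes of -0.02 ± 0.09 and 0.14 ± 0.08 (SE).

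Genes of the replication fork had 7 members above 0 and 4 below, with a median of 0.041 and none at an unadjusted p under 0.05. Pcna, the sliding clamp, had 17962 and 22261 in the shTop1 coculture against 18739 and 17103 in the shTop1 mix, and 17660 and 21148 in the shp53 coculture against 18597 and 19722 in the shp53 mix. In each coculture replicate 2 was the higher, and the log2 change was 0.09 ± 0.11 (SE). Rfc1 (0.06 ± 0.07) and Rfc4 (-0.14 ± 0.07), subunits of the clamp loader, had opposite signs. Rpa1 (0.10 ± 0.08) and Rpa2 (0.04 ± 0.09) encode subunits of the single-strand binding protein, and Prim1 (-0.03 ± 0.07) and Pola1 (0.02 ± 0.07) the primase and polymerase alpha. Pole (-0.03 ± 0.08), the catalytic subunit of polymerase epsilon, and Fen1 (-0.05 ± 0.10), the flap nuclease, had log2 changes within their SE. Pold1, the catalytic subunit of polymerase delta, had a log2 change of 0.14 ± 0.09 (SE), past its SE, with overlapping groups (two-sided exact permutation p = 0.0857). Lig1, the ligase that joins Okazaki fragments, had 6172 to 8445 in the cocultures and 5834 to 6703 in the mixes, a log2 change of 0.22 ± 0.12 (SE, limma adjusted p = 0.511).

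Of the genes for nucleotide supply, Rrm1, the large subunit of ribonucleotide reductase, had 5992 and 6166 in the shTop1 coculture against 5512 and 5506 in the shTop1 mix, and 5910 and 5818 in the shp53 coculture against 5675 and 5811 in the shp53 mix. Its groups did not overlap, but shp53 coculture replicate 2 lay barely above shp53 mix replicate 2, and the log2 change was 0.09 ± 0.06 (SE, limma adjusted p = 0.616). A second Rrm1 probe set above the filter had a log2 change of 0.006, with overlapping groups. Rrm2, the small subunit, had 0.06 ± 0.07 (SE). Tyms, thymidylate synthase, was read by a dim probe set with 84.2 and 95.6 in the shTop1 coculture against 156 and 91.7 in the shTop1 mix, and 58.7 and 64.7 in the shp53 coculture against 98.8 and 109.9 in the shp53 mix. The shTop1 values overlapped and the shp53 values did not. The log2 change was -0.50 ± 0.16 (SE, limma adjusted p = 0.365), and it was -0.33 without shTop1 mix replicate 1. Slbp, which binds the end of histone mRNA, had -0.03 ± 0.07 (SE).

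**Figure D4:**
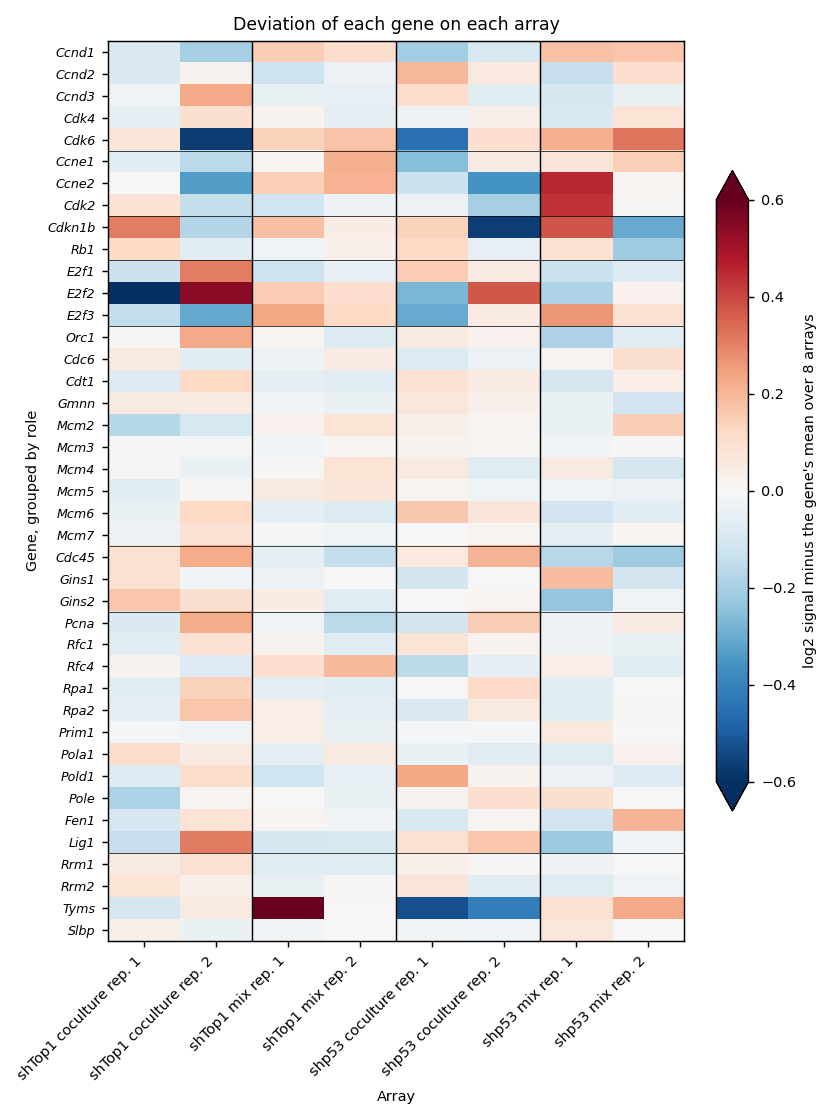
Log2 signal of each of the 41 genes (rows, grouped by role) on each of the 8 arrays (columns), minus the gene's mean over the arrays (colour, with values past 0.6 in either direction shown at the end colours). Most rows of the Mcm and fork genes are pale, and Cdk6, Cdkn1b, E2f2 and Tyms differ most between arrays of a group.

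A gene's probe sets did not always give the same change. Of the 100 probe sets, 91 were above the filter, and 32 members had 50 further probe sets beside the one used. Of these 50, 36 had the sign of the one used and 39 differed from it by under 0.2 on the log2 scale. For Ccnd1 the other probe sets gave -0.30 and -0.07, for Cdk6 -0.44 and -0.01, and for Tyms -0.32. For E2f3 the other probe set, which is dimmer, gave 0.13, and the mean over probe sets was -0.11. For Mcm6 the other one gave -0.17, and the mean over its probe sets was -0.05.

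**Figure D5:**
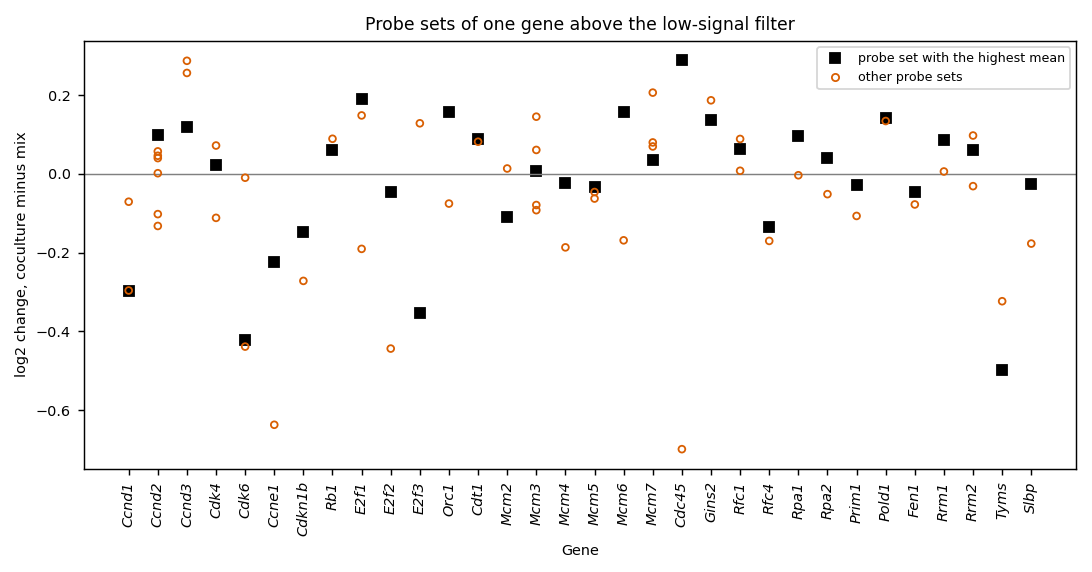
Log2 change between coculture and mix, averaged over both knockdowns (vertical axis), for each gene with further probe sets above the filter (horizontal axis). Squares are the probe set of highest mean and circles the others, and the pair furthest apart is that of Cdc45, at 0.29 and -0.70.

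The comparison was next made in each knockdown alone, where 2 arrays against 2 cannot go below an exact permutation p of 0.333. With shTop1 the members had a median log2 change of 0.038, against 0.030 for all genes tested, and with shp53 0.016, against 0.014. At an unadjusted p under 0.05 limma gave 2 members with shTop1 (4.88%, against 8.20% of all genes) and 4 with shp53 (9.76%, against 6.86%), and no member or other gene passed when adjusted. Those with shTop1 were Ccnd1 (-0.27 ± 0.10) and E2f3 (-0.40 ± 0.15), and those with shp53 were Ccnd1 (-0.32 ± 0.10), Ccne2 (-0.48 ± 0.19), Cdc45 (0.32 ± 0.11) and Tyms (-0.63 ± 0.22; SE). Ccne2 had -0.26 with shp53 without shp53 mix replicate 1. These counts moved up or down when single arrays were left out, as did the share of all genes in the same fit. Only the settings with the larger moves are listed, and the others moved the counts by less. With shTop1 there were 4 such members without shTop1 coculture replicate 1 (9.76%, against 10.7% of all genes), 1 without shTop1 mix replicate 1 (2.44%, against 5.37%) and 1 without shTop1 mix replicate 2 (2.44%, against 5.37%). There were 0 without shTop1 coculture replicate 2 (against 7.44% of all genes), shp53 mix replicate 1 (against 7.64%) or shp53 mix replicate 2 (against 7.71%). With shp53 there was 1 without shp53 coculture replicate 1 (2.44%, against 6.18% of all genes), 0 without shp53 mix replicate 1 (against 5.20%) and 2 without shp53 mix replicate 2 (4.88%, against 7.13%).

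Whether the coculture change differed between the knockdowns was tested by their difference, shTop1 minus shp53. It had 0 members at an unadjusted p under 0.05 by limma, against 4.30% of all genes, and 0 genes passed when adjusted. The difference was highest for Cdk2 (0.39 ± 0.24, SE, limma adjusted p = 1.00), with log2 changes of 0.05 with shTop1 and -0.34 with shp53, where shp53 mix replicate 1, at 3038, was the highest Cdk2 value. For Ccnd1 it was 0.05 ± 0.14 and for Cdc45 -0.06 ± 0.15 (SE).

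The knockdowns were last set against each other, shTop1 against shp53. Over both conditions the members had log2 differences from -0.11 to 0.31 with a median of -0.001, and by limma 0 of 41 were at an unadjusted p under 0.05, against 4.70% of all genes. No member had all shTop1 arrays above or all below the shp53 arrays, against 1.02% and 1.07% of all genes. Ccnd1 averaged 2452 ± 276 on the shTop1 arrays and 2487 ± 331 on the shp53 arrays (SD, n = 4 each), a log2 difference of -0.02 ± 0.07 (SE). The highest difference was that of Tyms, with 107 ± 33.0 on the shTop1 arrays and 83.0 ± 25.2 on the shp53 arrays (SD, n = 4 each), 0.31 ± 0.16 on the log2 scale (SE, limma adjusted p = 0.999). In the mixes alone and in the cocultures alone limma again gave 0 members at an unadjusted p under 0.05, against 4.04% and 4.78% of all genes.

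A wider list of 77 further genes of the same processes, of which 73 were tested, had a median log2 change of 0.011 between coculture and mix, with 42 above 0 and 31 below. None passed limma's test over all genes, and 5 (6.85%) were at an unadjusted p under 0.05, against 11.7% of all genes, 3 higher and 2 lower in coculture. Cocultures and mixes did not overlap for 2 that were higher (2.74%, against 5.75% of all genes), Cdkn2a among them. They did not overlap for 4 that were lower (5.48%, against 3.35%), Dtymk and Chtf18 among them. The inhibitors Cdkn1a, which encodes p21, and Cdkn2a had log2 changes of 0.44 ± 0.12 and 0.38 ± 0.10 (SE, limma adjusted p = 0.345 for each). Cdkn2a had 389 and 427 in the shTop1 coculture against 245 and 311 in the shTop1 mix, and 373 and 330.0 in the shp53 coculture against 299.8 and 296 in the shp53 mix. Every coculture was above every mix. Cdkn1a had 1908 and 2539 in the shTop1 coculture against 1461 and 1581 in the shTop1 mix, and 2669.9 and 2213 in the shp53 coculture against 1910.5 and 1880 in the shp53 mix. It was higher in coculture within each knockdown, and overlapped only across them. The other Cdkn genes of the list had overlapping groups. Cdkn1c went the other way, with a log2 change of -0.20 ± 0.08 (SE). Cdkn2b, Cdkn2c and Cdkn2d had log2 changes of 0.16 ± 0.15, 0.13 ± 0.10 and 0.05 ± 0.10 (SE). Pold4, a small subunit of polymerase delta, had 0.51 ± 0.21, Dtymk, thymidylate kinase, -0.18 ± 0.08, and Chtf18, part of an alternative clamp loader, -0.35 ± 0.08 (SE, limma adjusted p = 0.333 to 0.422).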

How the data were processed

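Each deposited file lists intensities on a linear scale, which the authors had scaled, as read from the values, to a common mean of about 500.003 after the highest and lowest 2% were left out. What summarised the probes is not given in the sources used. The labels name standard Affymetrix labelling of total RNA. Mean signal was 812 to 896, and precision is limited by how few arrays there are. No 2 arrays held identical values.

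Quantile normalization was applied to the intensities, then log2 of value + 16, so changes of dim genes are understated. Symbols came from the platform annotation and were updated through gene identifiers, with 34958 probe sets of 1 symbol, 932 of several and 9211 not listed. A gene's brightest probe set by mean stood for it, kept from the 30th percentile of all probe sets up. Beyond this choice, signals of different probe sets were only ranked as brighter or dimmer, or summed over marker lists. They were not read as relative amounts of RNA. All 8 arrays entered 1 fit of group means in limma 3.58.1 (R 4.3.3, lmFit and eBayes, 4 residual degrees of freedom), for 7 comparisons, two-sided, with Benjamini-Hochberg adjustment over all genes tested and a threshold of 0.05. Single values were tested by exact permutation. The fit was tested on simulated data. Printed signals are quantile normalized, and pooled SDs span both knockdowns or both conditions.

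The members, the lists and the tests were chosen with earlier results of these data known. All members were counted. Values on every array were given for members at an unadjusted p under 0.05 in the mean coculture comparison, the mean knockdown comparison or the difference of coculture changes, for the 3 brightest and the 3 dimmest, and for those whose probe sets disagree in sign by over 0.5, and from the wider list genes at an unadjusted p under 0.05 were named. Gmnn, Mcm6, Rrm1 and the remaining Cdkn genes of the wider list were added after their values were seen. The grouping of roles into 2 kinds was also made then. Promoter sequences are those of RefSeq for GRCm38.p6. The alternatives were a replicate block, other scalings, filters, pseudocounts, probe set rules and variances, only the groups compared, and leaving out each array.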

Additional observations from a re-analysis of the deposited data

How the results depend on the processing

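No member (0) was called in any alternative. When variances were trended and robust, limma's calls were 31 genes over both knockdowns, 3 with shTop1 and 1 with shp53, against 0 otherwise, none of them a member, and 11 members were then at an unadjusted p under 0.05 (26.8%, against 14.4% of all genes). Averaging the probe sets of a gene, Cdc45 turned to -0.21 over both knockdowns and -0.17 with shp53, and Mcm6 to -0.050, since the dimmer probe sets run the other way. Members without overlap then numbered 1 above and 2 below, against 4 each (4.72% and 3.46% of all genes). With every probe set by itself, 5 of the members' 91 probe sets were above and 8 below (4.61% and 3.46% of all probe sets), with Ccnd1 counted for 2 probe sets below and Cdc45 for 1 each way. The signs of Ccnd1, Ccne2, Cdk6, E2f3, Tyms, Gmnn and Rrm1 over both knockdowns held in all alternatives that gave 1 value per gene, with E2f3 at -0.11 and Tyms at -0.09 with the mean of probe sets. With every probe set by itself, the second E2f3 probe set had the opposite sign, at 0.13. Medians of the members moved past the spread between replicates, 0.033, in these cases. With median centring they were 0.096 over both knockdowns, 0.10 with shTop1 and 0.072 with shp53. All genes tested moved up too, to medians of 0.068, 0.076 and 0.059. For shTop1 against shp53 the members' medians with this centring were 0.071 over both conditions, 0.064 in the mixes and 0.11 in the cocultures. No median of all genes is given beside these last values, so a shift of all genes cannot be told apart there. With the mean of probe sets the median was -0.029 with shTop1, and -0.040 for the difference of the coculture changes, which was -0.033 with every probe set by itself. With each array left out in turn, medians lay from 0.0013 to 0.032 over both knockdowns, from -0.012 to 0.050 with shTop1, from 0.014 to 0.056 with shp53, and from -0.027 to 0.022 for the difference, and a lone array left in a group was taken to vary like the others. Over all genes replicate numbers did not pair the arrays, since deviations of same-numbered arrays correlated at -0.007 to 0.051. Over the members they correlated at 0.34 to 0.54 among the shTop1 coculture, the shp53 coculture and the shp53 mix. Between the shTop1 mix and each of these groups they correlated at -0.16 to -0.09. Why the members differ from all genes in this was not tested. With the replicate block the count at an unadjusted p under 0.05 was 5 over both knockdowns, as without it, and 1 with shTop1 against 2 without it, and the adjusted p of Ccnd1 was 0.376. Changes of probe sets near the filter, such as that of Tyms, are limited by signal.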

Other observations

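The probe sets given here were chosen after their values were seen. For Ccne1 a probe set whose name marks it as able to bind related transcripts had 2637 and 1347 in the shTop1 coculture against 2801 and 3499 in the shTop1 mix, and 3843 and 1454 in the shp53 coculture against 2748 and 4362 in the shp53 mix. For Mcm4 such a probe set had 7171 and 4486 in the shTop1 coculture against 6238 and 7036 in the shTop1 mix, and 6203 and 4538 in the shp53 coculture against 6341 and 5466 in the shp53 mix. For Mcm6 one had 5837 and 4002 in the shTop1 coculture against 5244 and 5840 in the shTop1 mix, and 5181 and 4045 in the shp53 coculture against 5512 and 4637 in the shp53 mix. In all 3 the lowest values were those of replicate 2 of both cocultures. The lowest value of the probe set used in the tests was that of shp53 mix replicate 2 for Mcm4 (8901) and of shp53 mix replicate 1 for Mcm6 (8829). A Mcm7 probe set with this mark instead had its highest values in replicate 2 of both cocultures, 7269 and 7232. The probe sets used in the tests for Cdk4, Mcm5, Pold1, Fen1 and Rrm2 carry the mark too, and the lowest value of each was on another array. A second E2f2 probe set had 172 and 101 in the shTop1 coculture against 194 and 219 in the shTop1 mix, and 158 and 138 in the shp53 coculture against 193 and 178 in the shp53 mix, with all cocultures below all mixes.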
